A study of Homo sapiens with 15 samples.

Results

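Untreated human umbilical vein endothelial cells (HUVEC) were measured on 3 of the series' 15 Affymetrix whole-transcript gene arrays, titled as HuVEC replicates 1 to 3 and described in the labels as untreated. HUVEC are cells isolated from the lining of the umbilical vein, and the labels name no donor or passage and call the cells an endothelial cell line. The labels give no treatment for these arrays, 300 ng of total RNA per labelling, and EGM2 as the medium of the HUVEC that were exposed to exosomes, with nothing said of the medium of the untreated cells. The other 12 arrays hold HUVEC exposed for 6 h to exosomes of the T cell line Jurkat or of its CD47-deficient mutant JinB8, and RNA of those exosomes, and they were not compared with the untreated cells. Whether the 3 samples came from separate cultures is not stated, so the spread between them may be technical.

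The members were all 18394 genes represented by a probeset with a single gene symbol, ranked within each of the 3 arrays by the deposited log2 signal. A gene's rank is given as a percentile, where 0 is the dimmest gene of the array and 100 the brightest, and each ± is the standard deviation over the 3 arrays (n = 3). The order of genes reflects how well their probes respond as well as how much RNA is present, so a percentile places a gene's signal on the array and is not a transcript number. In RNA from a whole culture, fewer cells of a type and less RNA per cell cannot be told apart. Percentiles need no common scale between arrays, which matters because the median of all rows of the table lay at 6.91, 6.98 and 7.03 on the untreated arrays 1, 2 and 3, and between 5.08 and 5.18 on the other 12 arrays.

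Endothelial cells form the inner wall of blood vessels. They hold on to each other through junctions built on VE-cadherin and PECAM-1, lie on a basement membrane that they make themselves, keep blood from clotting, and carry receptors for the growth factor VEGF through which vessel growth is steered. ETS family transcription factors such as ERG and FLI1, with SOX and GATA factors, maintain this identity, and laminar flow, which cells in a dish lack, keeps factors such as KLF2 and KLF4 high in vessels.

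The 4 defining markers were among the brightest genes of every array, as the label of the cells calls for. CDH5, which encodes VE-cadherin, read 12.76, 12.62 and 12.72 on the log2 scale and had a mean percentile of 99.8. PECAM1, the adhesion molecule of endothelial contacts, read 12.65, 12.48 and 12.61, at the 99.7th percentile. KDR, the main signalling receptor for VEGF, read 11.97, 11.81 and 11.88, at the 98.8th percentile. Array 2 was the lowest for each of these, by a margin that left the rank nearly unchanged. VWF, the large clotting protein that endothelial cells store in Weibel-Palade bodies, read 11.39, 10.83 and 11.35, and its percentiles of 97.5, 95.8 and 97.7 show the same array lower. PECAM1 has another probeset, not used here because it was dimmer, that stood at percentiles of 37.8, 38.4 and 39.3 among all single-symbol probesets against 99.6, 99.5 and 99.6 for the one used, so a gene's place depends on which probeset stands for it.

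Of 50 endothelial identity genes listed, 48 were measured, and ECSCR and BMX were not analysed here. Their median percentile was 92.2, 90.9 and 91.6 on arrays 1, 2 and 3, or 91.6 ± 0.683. A gene was counted as in the top 10% when its percentile was at least 90 on every array. That held for 24 of the 48, and for 9.11% of all genes, the share to set beside each later count in the top 10%. All but 1 of the 48, GIMAP4, lay above the 50th percentile on every array. By construction no more than about 50% of all genes can do so, here and in later counts of this kind. Olfactory receptor genes, which serve the nose, were used as a yardstick of dim signal, and 43 of the 48 were brighter on every array than the brightest of the 341 olfactory receptor genes, as were 36.3% of all genes.

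The highest members after CDH5 and PECAM1 were receptors and surface proteins of the endothelium. ENG, the TGF-beta co-receptor endoglin, had a mean percentile of 99.6, and TM4SF1, a membrane protein of endothelial nanopodia, stood at 99.5. ICAM2, an adhesion molecule for leukocytes, was at 99.5, and ECE1, the enzyme that cuts endothelin to its active form, at 99.2. The adhesion receptor ADGRL4 was at 98.9, beside KDR at 98.8. Each of these genes kept nearly the same place on the 3 arrays, and the widest of them, ECE1, had percentiles of 99.27, 99.02 and 99.33.

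The low end of the identity list held genes whose protein is well known in vessels. PLVAP, which forms the diaphragms of fenestrae, had percentiles of 54.4, 54.6 and 50.6, and GIMAP4, a small GTPase, had 61.2, 48.7 and 52.5. TAL1, a transcription factor of the blood and endothelial lineage, averaged 63.1, SOX18 64.4, and NOS3, the endothelial nitric oxide synthase, 64.5 ± 3.16. These 5 were the members that were not brighter on every array than the brightest olfactory receptor gene, OR1F1, whose percentiles were 49.1, 55.7 and 63.6 on arrays 1, 2 and 3. The plot of each identity gene by array shows this tail and the tight top of the list.

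**Figure D1:**
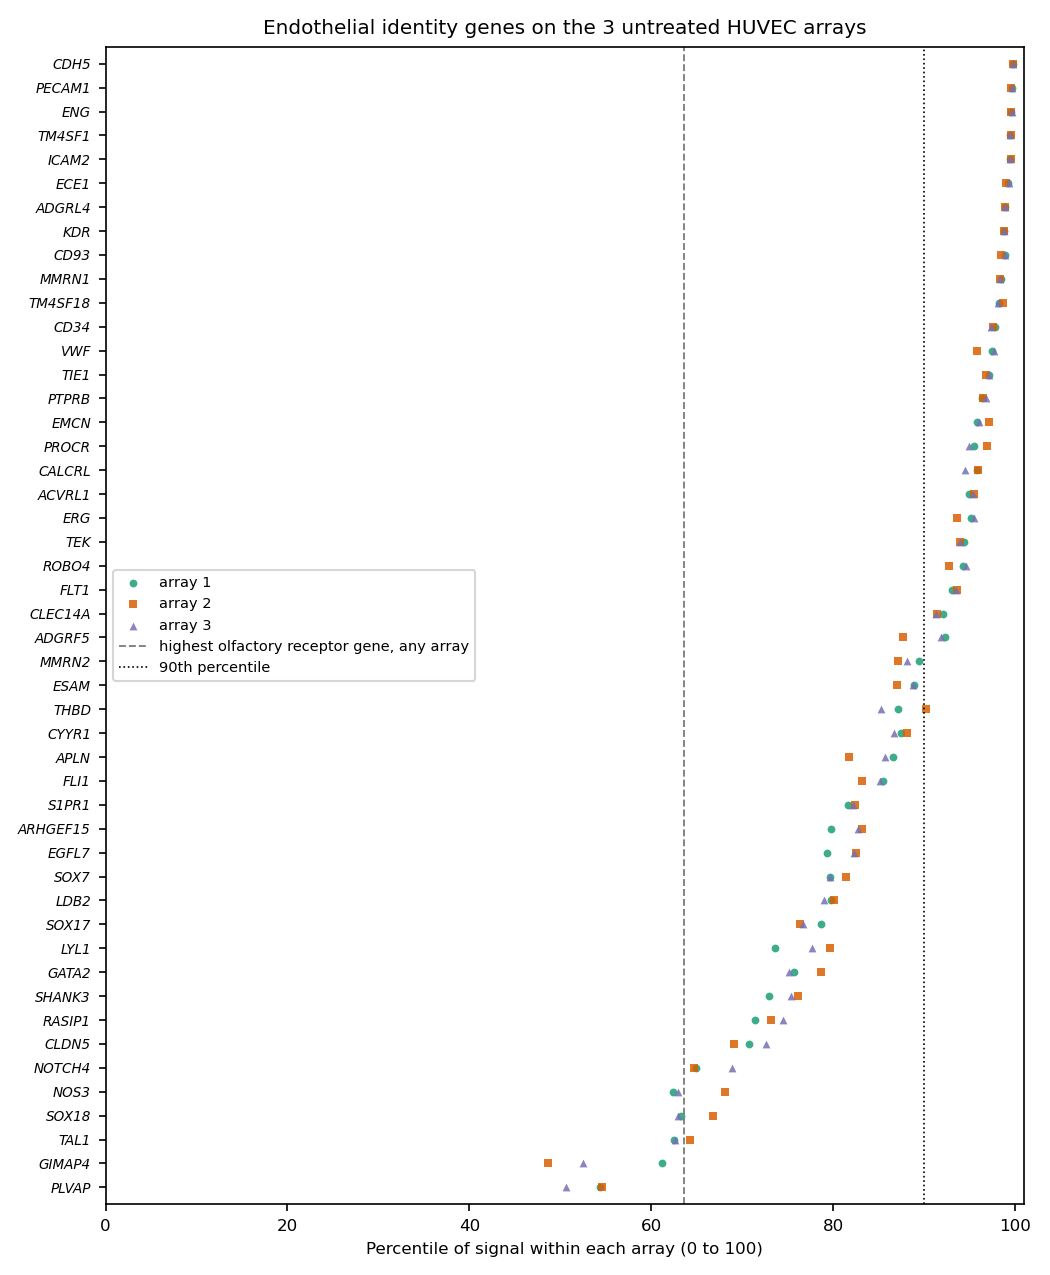
Percentile of signal of each of the 48 measured endothelial identity genes on the 3 untreated HUVEC arrays (circle, square and triangle for arrays 1, 2 and 3), ordered by mean. The dotted line is the 90th percentile and the dashed line the brightest olfactory receptor gene on any array, at 63.6; 24 genes lie right of the dotted line on every array, and PLVAP, at a mean of 53.2, is the lowest.

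The 250 bases before the start of a gene were read for the 4 highest identity genes with an entry in the RefSeq promoter table (GRCh38.p14), for the 2 highest ribosomal protein genes as a housekeeping reference, and for the dimmest olfactory receptor gene. They are shown because base composition and the short ETS motifs differed between these classes, as described further on. Each is printed from the distal to the proximal end on the gene's own strand, in lower case. Capitals mark only CAGGAA or CCGGAA, letters bound by ETS factors, on either strand. Other stretches with GGAA, the shorter ETS core, are left in lower case.
ENG, chr9:127854659-127854908, minus strand: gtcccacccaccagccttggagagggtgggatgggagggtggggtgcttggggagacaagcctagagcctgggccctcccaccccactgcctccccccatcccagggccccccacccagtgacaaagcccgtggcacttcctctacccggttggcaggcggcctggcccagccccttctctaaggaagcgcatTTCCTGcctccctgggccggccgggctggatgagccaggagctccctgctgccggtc
TM4SF1, chr3:149377650-149377899, minus strand: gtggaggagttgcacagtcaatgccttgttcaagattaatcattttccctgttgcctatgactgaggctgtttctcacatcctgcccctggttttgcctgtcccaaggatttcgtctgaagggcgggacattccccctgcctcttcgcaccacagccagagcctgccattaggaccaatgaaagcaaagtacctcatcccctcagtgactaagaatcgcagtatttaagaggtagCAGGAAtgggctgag
ECE1, chr1:21345505-21345754, minus strand: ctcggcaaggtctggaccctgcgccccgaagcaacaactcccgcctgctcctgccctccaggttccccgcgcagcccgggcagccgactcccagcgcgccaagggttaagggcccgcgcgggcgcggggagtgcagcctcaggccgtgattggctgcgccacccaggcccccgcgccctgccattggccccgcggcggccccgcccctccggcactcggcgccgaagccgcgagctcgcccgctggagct
ADGRL4, chr1:79006731-79006980, minus strand: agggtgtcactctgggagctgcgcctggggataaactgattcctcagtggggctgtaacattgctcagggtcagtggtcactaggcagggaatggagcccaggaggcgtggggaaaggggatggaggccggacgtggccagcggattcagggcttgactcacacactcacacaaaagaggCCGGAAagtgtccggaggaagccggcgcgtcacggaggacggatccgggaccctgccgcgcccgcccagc
RPS28, chr19:8321246-8321495, plus strand: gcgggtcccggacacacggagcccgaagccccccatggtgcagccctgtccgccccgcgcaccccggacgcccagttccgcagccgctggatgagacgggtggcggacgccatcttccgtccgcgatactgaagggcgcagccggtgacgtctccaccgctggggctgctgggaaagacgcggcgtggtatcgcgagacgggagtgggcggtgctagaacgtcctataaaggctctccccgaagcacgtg
RPL18, chr19:48619179-48619428, minus strand: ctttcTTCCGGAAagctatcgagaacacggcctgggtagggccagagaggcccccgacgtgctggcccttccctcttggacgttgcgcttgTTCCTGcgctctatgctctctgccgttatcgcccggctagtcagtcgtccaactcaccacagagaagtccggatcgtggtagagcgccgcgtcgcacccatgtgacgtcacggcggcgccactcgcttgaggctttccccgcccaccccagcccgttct
OR5K1, chr3:98462951-98463200, plus strand: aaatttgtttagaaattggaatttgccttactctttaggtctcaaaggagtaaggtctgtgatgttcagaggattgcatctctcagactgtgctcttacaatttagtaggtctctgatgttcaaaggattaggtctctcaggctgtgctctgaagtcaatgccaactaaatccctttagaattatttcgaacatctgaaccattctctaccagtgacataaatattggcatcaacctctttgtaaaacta

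In these windows ENG and TM4SF1 each hold 1 copy of CAGGAA, ADGRL4 holds 1 copy of CCGGAA, and ECE1 holds neither. RPL18 has the palindrome that reads as CCGGAA on both strands, counted as 2, and 1 CAGGAA, while RPS28 and OR5K1 have no match. The ENG window had a ratio of observed to expected CpG of 0.234, against 1.02 for RPS28 and 0.113 for OR5K1. A match describes letters in this window and is not a measured binding site.

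Transcription factors of endothelial cells stood lower than the surface proteins. Over the 25 measured of 29 listed, the median percentile was 79.3 ± 1.95. In the top 10% were 4 genes, against 9.11% of all genes, and 21 lay above the 50th percentile on every array. EPAS1, the hypoxia-inducible factor HIF-2 alpha, read 11.91, 11.87 and 11.84 and stood at 98.8. ERG, an ETS factor needed for endothelial identity, read 10.84, 10.46 and 10.76 and stood at 94.8 ± 0.990. BCL6B was at 94.8 and MEF2A at 94.5. The flow-responsive KLF2 had percentiles of 62.1, 63.8 and 62.6, and KLF4 had 29.5, 29.8 and 24.1. Also low were ZNF366 at 33.0, the homeobox gene MEOX2 at 41.0 and LMO2 at 48.8.

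Within the factor families, which were defined by gene symbol, the brightest members were partly ones outside the endothelial lists. ERG led the 26 ETS factors, followed by ELF1 at 94.4 and ETS1 at 89.1. KLF7, at 98.8, and KLF3, at 91.2, stood above the other Krueppel-like factors. SOX7 at 80.3, SOX4 at 78.2 and SOX17 at 77.2 led the 19 SOX factors, of which 0 reached the top 10%. GATA6, with percentiles of 89.3, 92.6 and 90.6, was brighter than GATA2 at 76.5, the GATA factor of the endothelial list.

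Both arterial and venous marker genes were found among the bright genes. All 17 measured arterial markers lay above the 50th percentile on every array, which no more than about 50% of all genes can do. Their median was 74.1 ± 4.23, and 4 were in the top 10%, against 9.11% of all genes. The Notch ligands JAG1 and JAG2 averaged 97.0 and 95.3, the semaphorin and VEGF co-receptor NRP1 94.0 and the elastic fibre protein FBLN5 93.6. EFNB2, the arterial ephrin, had percentiles of 91.3, 87.8 and 90.6. The lowest arterial genes were DLL4, a Notch ligand of arteries and tip cells, at 60.8, LTBP4 at 62.5 and HEY1 at 64.4 ± 4.998.

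The 9 measured venous markers had a lower median, 53.2 ± 2.24, although the cells come from a vein. EPHB4, the receptor for EFNB2 and the classical vein marker, was in the top 10% at 93.7 ± 0.141, and FLRT2 was at 92.1. NRP2 stood at 86.6 and VCAM1, a leukocyte adhesion molecule, at 69.6. APLNR, the apelin receptor, was at 16.5, ACKR1, the chemokine-binding receptor of venules, at 25.5, and SELP, which encodes P-selectin, at 26.2. NR2F2, which encodes the vein-specifying factor COUP-TFII, was not analysed here.

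Markers of other vascular beds were spread widely. Of 10 lymphatic markers, 1 was in the top 10%, against 9.11% of all genes. This was MMRN1, at 98.4, which is also on the identity list. The lymphatic list had a median of 57.1 ± 2.83, and 4 of the 10 were above every olfactory receptor gene, against 36.3% of all genes. The master regulator of lymphatic fate, PROX1, had percentiles of 30.2, 32.4 and 28.7, and podoplanin, PDPN, 26.8, 26.2 and 27.2. LYVE1, the hyaluronan receptor, averaged 62.7 ± 4.08. The 22 markers of brain and organ capillaries had a median of 33.6 ± 2.18. Among them RGCC was at 92.4 and FABP4, a fatty acid binding protein, at 86.5, while CD36, a fatty acid transporter of capillaries, was at 3.50 and the thyroxine transporter SLCO1C1 at 6.86.

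Genes by which endothelial cells do their work had list medians above that of the identity genes, except for vascular tone and inflammation. The 16 junction and barrier genes had a median percentile of 96.2 ± 0.346, with 10 in the top 10%. Next to CDH5 and PECAM1 stood beta-catenin, CTNNB1, at 99.2, and the gap junction protein GJA1 at 97.9. The scaffold TJP1 was at 97.5, plakoglobin, JUP, at 97.3, and vinculin, VCL, at 97.3. CLDN5, the claudin of tight endothelial barriers, was at 70.9 ± 1.74, and cingulin, CGN, was the lowest at 34.9. Within the 23 claudins the brightest were CLDN11 at 98.0 and CLDN1 at 94.8.

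The 28 genes of VEGF, angiopoietin and TGF-beta signalling had a median of 92.6 ± 0.175, with 16 in the top 10% and 26 above every olfactory receptor gene. Receptors led the list, with ENG, BMPR2 at 99.4, TGFBR2 at 99.3, KDR, and TIE1 at 97.0. Of the ligands, TGFB2 was at 99.1, BMP6 at 97.6 and ANGPT2, the angiopoietin that endothelial cells store, at 96.6. ANGPT1, the angiopoietin made chiefly by mural cells, was at 11.1 ± 1.02, and VEGFA was at 67.7. The pair of angiopoietins was thus placed at opposite ends of the range on every array, with ANGPT2 at 96.5, 96.4 and 96.8 and ANGPT1 at 10.6, 10.5 and 12.3.

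Basement membrane and matrix genes held 20 of 28 members in the top 10%, with a median of 95.6 ± 0.602. Fibronectin, FN1, ranked 4, 3 and 3 among all genes of arrays 1, 2 and 3. SPARC, a collagen-binding matrix protein, was at 99.9, the collagenase MMP1 at 99.8 and the gelatinase MMP2 at 99.7. Biglycan, BGN, was at 99.7 and perlecan, HSPG2, at 99.5. Laminin chains LAMB1 at 99.03, LAMC1 at 98.3 and LAMA4 at 98.2 and the type IV collagens COL4A2 at 94.8 and COL4A1 at 93.8 led their families. COL15A1 at 30.1, VCAN at 50.0 and TIMP3 at 50.9 were the lowest of the list.

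Of 22 haemostasis and fibrinolysis genes 13 were in the top 10%, and the list median was 93.2 ± 1.07. THBS1, thrombospondin-1, a matrix and platelet protein that binds CD47, read 13.36, 13.32 and 13.45 and ranked 3, 4 and 4 among all genes. The plasminogen-binding pair S100A10 and ANXA2 stood at 99.5 and 99.2, the thrombin receptor F2R at 98.4 and tissue plasminogen activator, PLAT, at 98.3. Dim members were the clotting factor F8 at 14.2, SELP at 26.2, F3, which encodes tissue factor, at 32.2 ± 5.48, and the thrombin receptor F2RL3 at 35.3.

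Vasoactive and prostanoid genes ranged from one end of the array to the other, with a median of 63.6 ± 0.540 over 25 genes and 7 in the top 10%. Caveolin, CAV1, was at 99.6. PTGS2, the inducible cyclooxygenase, read 12.48, 12.49 and 12.48 and stood at 99.6, and the vasoconstrictor EDN1 read 12.55, 12.44 and 12.42, also at 99.6. DDAH1, which degrades an inhibitor of nitric oxide synthase, was at 97.1. HPGD, which breaks prostaglandins down, was at 3.55, and the subunits of the nitric oxide receptor GUCY1A1 and GUCY1B1, typical of smooth muscle, were at 26.0 and 43.5.

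Leukocyte adhesion and inflammatory genes had a median of 72.3 ± 2.78 over 24 genes, with 8 in the top 10%. The chemokine CCL2 read 12.80, 12.83 and 12.84 and stood at 99.8. ICAM1 was at 98.97 and E-selectin, SELE, at 98.7, both adhesion molecules of activated endothelium. CXCL8 was at 93.8 and the inhibitor of NF-kappaB NFKBIA at 96.4. On the low side stood the chemokine CXCL3 at 23.6, the cytokine LIF at 24.5, and IL1B at 33.8 ± 4.46. The selectins lay far apart, with percentiles of 98.9, 98.4 and 98.9 for SELE and 27.8, 24.7 and 26.2 for SELP.

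**Figure D2:**
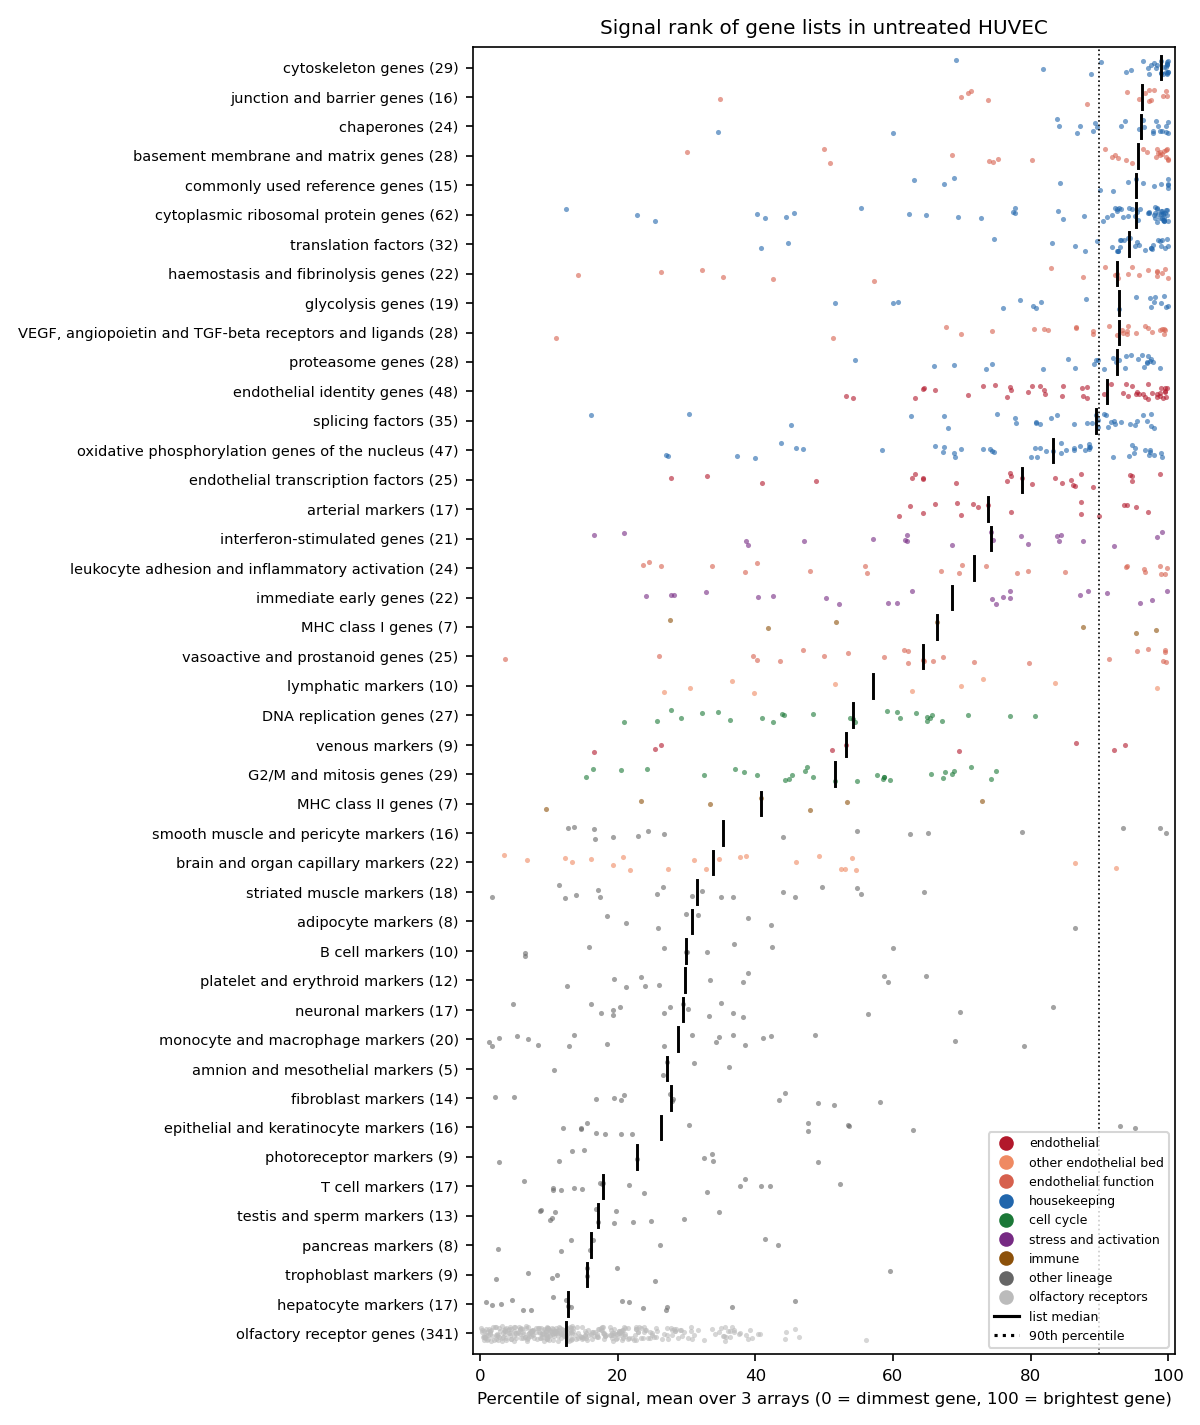
Mean percentile over the 3 untreated arrays of each measured gene of 43 lists and of the olfactory receptor genes, 1 point a gene, with the black bar at the median of the gene means, the dotted line at the 90th percentile and the number of genes in brackets. Most housekeeping lists and the junction and matrix lists lie at the right, and endothelial identity at a median near 91. Splicing factors and oxidative phosphorylation genes, also housekeeping lists, lie left of endothelial identity. Lists of other lineages lie below 50, and olfactory receptor genes at the left.

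The brightest genes of the arrays mixed matrix, cytoskeleton and housekeeping products. FAF2, a factor of the pathway that removes misfolded proteins from the endoplasmic reticulum, ranked 1 on each array with log2 signals of 13.51, 13.56 and 13.64. MT2A, a zinc-binding metallothionein, ranked 2 on each. FN1, THBS1, GAPDH, PTMA, RPS28, ACTG1, ACTB and EEF1A1 completed the highest 10 by mean percentile. The next 10 were HSPA8, EFEMP1, SPARC, ITGA5, CDK2AP1, HSPB1, ANKRD1, IGFBP7, TUBB and ANXA1. Of these 20 genes, FN1, THBS1, EFEMP1, SPARC and IGFBP7 encode secreted or matrix proteins, and ITGA5 encodes the alpha chain of the fibronectin receptor.

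Housekeeping classes held 284 genes in 9 lists, and 159 of them, 56.0%, were in the top 10%, against 9.11% of all genes. Cytoskeleton genes were the highest list, with a median of 98.97 ± 0.0357 and 25 of 29 in the top 10%. Chaperones followed at 96.0 ± 0.500 with 15 of 24, led by HSPA8 and by HSPB1 at 99.9, and the mitochondrial co-chaperonin HSPE1 was their lowest at 34.5 ± 5.74. Translation factors had a median of 94.2 ± 0.789 with 25 of 32, glycolysis genes 92.8 ± 0.409 with 10 of 19, and proteasome genes 92.6 ± 0.695 with 16 of 28. Splicing factors lay lower at 89.0 ± 0.596 with 10 of 35, and nuclear genes of oxidative phosphorylation at 82.8 ± 0.662 with 12 of 47. The 73 mitochondrial ribosomal proteins had a median of 72.9 ± 0.906 with 8 in the top 10%.

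The 62 measured of 66 listed cytoplasmic ribosomal protein genes had a median of 95.2 ± 0.504, with 43 in the top 10%. RPS28 read 13.27, 13.22 and 13.19, and RPL18 at 99.9, RPL5 at 99.8 and RPL8 at 99.7 came next. The list had a long low tail although ribosomal proteins are made in equal number for each ribosome. RPL22 had percentiles of 12.99, 16.7 and 7.94, RPS29 averaged 25.4 ± 4.13 and RPL17 40.3 ± 4.69. RPL39L and RPL10L, testis-enriched copies of other ribosomal protein genes, were at 22.8 and 41.4. Genes of this class share sequence with many pseudogene copies, so single members are uncertain.

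Genes used as references for other measurements also differed in place. GAPDH, ACTB and EEF1A1 were among the 10 brightest genes, YWHAZ was at 98.96, PGK1 at 97.9 and B2M at 95.3. TBP was at 84.2, PPIA at 68.9, GUSB at 67.5 and HPRT1 at 63.1 ± 3.70. Of the glycolytic enzymes ENO1 was at 99.6 and LDHA at 99.4, and hexokinase 2, HK2, was the lowest at 51.6 ± 4.46. Among the splicing factors HNRNPK was the highest at 98.0 and HNRNPA1 the lowest at 16.2.

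Markers of other lineages were dim as lists, with named exceptions. Over 16 lists and 208 genes the median percentile was 23.9 ± 1.13, and all 16 list medians were below 50. Below the 50th percentile on every array lay 175 genes, where by construction no more than about 50% of all genes can lie. In the top 10% were 5 genes, 2.40% of the 208 against 9.11% of all genes. Above every olfactory receptor gene lay 16 of the 208, against 36.3% of all genes. The 5 were the melanoma adhesion molecule MCAM at 99.7, the signalling regulator RGS5 at 98.8 and the actin-binding TAGLN at 93.4, listed for smooth muscle and pericytes, and the keratins KRT7 at 95.2 and KRT18 at 93.0, listed for epithelium. MCAM, KRT7 and KRT18 are also known in endothelial cells, so these lists are not free of genes that the studied cell type makes.

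The remaining members of the same 2 lists were placed lower. The 16 mural cell genes had a median of 35.6 ± 1.95 and were spread widely. On every array 7 of them lay above the 50th percentile and 9 below it, and 5 were above every olfactory receptor gene. Among the lower members ABCC9 was at 12.7, CSPG4 at 13.7, KCNJ8 at 16.7 and desmin, DES, at 44.0. ACTA2, smooth muscle actin, had percentiles of 65.5, 67.6 and 62.3. The 16 epithelial genes had a median of 26.4 ± 3.09. On every array 4 of them, KRT7 and KRT18 included, lay above the 50th percentile and 11 below it. Above every olfactory receptor gene were 3. Among the lower epithelial members CDH1, which encodes E-cadherin, was at 14.6 ± 0.647, CLDN4 at 15.6 and KRT20 at 12.01. Other cells of the cord and blood were represented by dim lists too. Fibroblast markers had a median of 26.9 ± 1.53 over 14 genes, with LUM at 2.17 and DCN at 4.94 as the lowest and COL1A1 at 58.1 and COL1A2 at 51.4 as the highest.

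Blood cell lists had medians of 18.9 ± 1.42 for 17 T cell genes, 30.4 ± 0.339 for 10 B cell genes, 28.8 ± 1.65 for 20 monocyte and macrophage genes, and 29.7 ± 1.25 for 12 platelet and erythroid genes. CD3G, a chain of the T cell receptor complex, was at 10.6, and MS4A1, the B cell antigen CD20, at 6.46. PTPRC, the pan-leukocyte antigen CD45, was at 2.82 and LYZ, lysozyme, at 1.77. The exceptions on the monocyte and macrophage list were CD68, a lysosomal protein, at 79.0 ± 2.20 and TYROBP, a signalling adaptor, at 69.0 ± 3.64. On the platelet and erythroid list 2 of 12 genes were above every olfactory receptor gene, and its highest member averaged 64.8. The highest B cell gene was at 60.0 and the highest T cell gene at 52.25. Haemoglobin beta, HBB, was at 19.5 and the platelet chemokine PPBP at 12.6. On no blood cell list did a member reach the top 10%.

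Lists of distant tissues were dim as well. The medians were 12.98 ± 0.999 for 17 hepatocyte genes, 14.8 ± 1.12 for 9 trophoblast genes, 16.3 ± 1.32 for 8 pancreas genes, 17.5 ± 1.27 for 13 testis genes and 22.8 ± 3.30 for 9 photoreceptor genes. Amnion and mesothelial genes were at 28.5 ± 1.02, neuronal genes at 29.3 ± 0.897, adipocyte genes at 31.1 ± 2.74 and striated muscle genes at 31.4 ± 0.603. Fibrinogen gamma, FGG, was at 0.816, below most olfactory receptor genes. The brightest of these members were FABP4, the synaptic vesicle protein SYT1 at 83.3 ± 1.62 and the microtubule protein MAP2 at 69.7. The 341 olfactory receptor genes had a median of 12.7 ± 2.01, with 0 above the 50th percentile on every array. At or below the 10th percentile on every array were 107 of them, or 31.4%, and 8.57% of all genes. Among the 173 microRNA genes 70 were that dim, and among the 208 genes of other lineages 25.

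Not every family foreign to vessels lay at the level of the olfactory receptors. The 67 keratin-associated protein genes, which build hair, had a median of 39.8 ± 3.03. Above every olfactory receptor gene were 16 of the 67, against 36.3% of all genes, and 0 were in the top 10%. At or below the 10th percentile on every array were 10, or 14.9%, against 8.57% of all genes. KRTAP5-7 had percentiles of 88.9, 91.5 and 93.6. The 27 taste receptor genes had a median of 25.03 ± 1.06. Percentiles in the lower part of the array thus differed between families that endothelial cells are not known to use.

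The 3 arrays ordered the genes almost alike. Spearman's rho across the 18394 genes was 0.992 for arrays 1 and 2, 0.991 for arrays 1 and 3, and 0.994 for arrays 2 and 3. These are descriptions across genes, which are not independent replicates, and the arrays share the platform, the labelling kit and the processing. Of the 1840 genes at or above the 90th percentile on 1 array of a pair, 1712, 1756 and 1718 were shared, or 93.0%, 95.4% and 93.4%. The middle gene changed its place by 1.76, 1.84 and 1.67 percentile points between arrays.

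The range of a gene's percentile over the 3 arrays, highest minus lowest, had a median of 3.05 points. It exceeded 10 points for 819 genes, 4.45% of all, and 20 points for 29 genes. The spread depended on where the gene lay. In the band from the 90th to the 100th percentile the median range was 0.750 points, in the band from 40 to 50 it was 5.13, and in the lowest band 1.48. The standard deviation of the log2 signal itself varied less, and was 0.111 in the highest band and 0.139 in the band from 40 to 50 for the median gene.

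**Figure D3:**
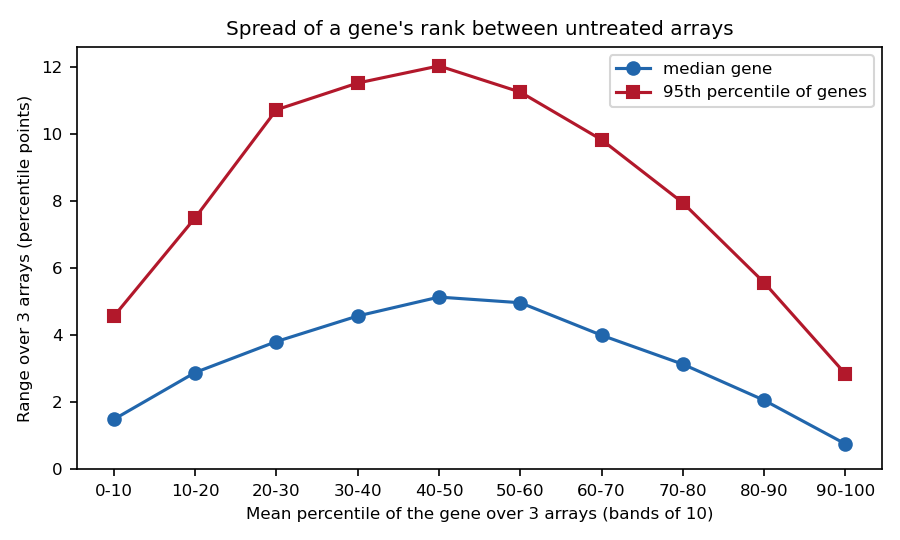
Range of a gene's percentile over the 3 untreated arrays, in percentile points, for the median gene (circles) and for the 95th percentile of genes (squares) in 10 bands of mean percentile. The median range is 0.750 points in the highest band and 5.13 points in the band from 40 to 50, where the 95th percentile of genes is at 12.03 points.

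The genes that moved most were small RNAs and genes of the cell cycle. SNORA14A had the widest range, with percentiles of 38.1, 73.0 and 27.8, followed by SNORD116-1 with 68.0, 36.4 and 69.0, SNORD116-6 with 49.2, 16.6 and 42.1, and SNORA21 with 51.2, 70.2 and 41.1. All 4 of these small nucleolar RNAs stood apart on array 2. COX7B, a subunit of cytochrome c oxidase, had 39.7, 28.9 and 12.3, and CCNB2, a mitotic cyclin, had 57.4, 31.3 and 44.4. The remaining 6 of the 12 widest were SNORD114-3, OR2J3, DLGAP5, VTRNA1-1, PBK and SNORA20. Over all 403 small RNA genes the range exceeded 10 points for 61, or 15.1%, against 4.45% of all genes.

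Some gene groups stood highest on array 1, a pattern noticed after the values were seen. Of the 29 G2/M and mitosis genes, 28 had their highest percentile on array 1, where 33.9% of all genes did. Their median was 60.4, 46.0 and 49.4 on arrays 1, 2 and 3. PLK1, a mitotic kinase, had percentiles of 82.8, 65.5 and 76.7, and CDC20, which triggers anaphase, 81.2, 67.5 and 74.2. The proliferation antigen MKI67 had 72.4, 63.7 and 66.5, and CDK1 29.6, 18.5 and 13.2. Of the 27 DNA replication genes 24 were highest on array 1, with medians of 59.3, 52.7 and 55.3, and TYMS, thymidylate synthase, at 84.0, 79.7 and 78.4 was their brightest. None of these 56 cell cycle genes was in the top 10%. Because the genes of a list are read from the same 3 RNA samples, the counts describe these arrays and not a property of untreated cells in general.

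Interferon-stimulated genes moved the same way. Of 21 measured, 19 were highest on array 1, and the list median was 79.6, 68.0 and 73.0. IFI6 and IFI27, at means of 99.1 and 98.3, hardly moved. MX2, an antiviral GTPase, had percentiles of 53.7, 31.3 and 31.1, IFIT1 60.2, 38.3 and 42.6, and IFI44L 93.7, 82.0 and 87.1. Replication-dependent histone genes were highest on array 1 for 45 of 57. Housekeeping lists shared this in part, with 36 of 62 ribosomal protein genes, 20 of 32 translation factors and 12 of 19 glycolysis genes highest there. So were 45 of 73 mitochondrial ribosomal proteins, but only 10 of 29 cytoskeleton genes and 7 of 24 chaperones, against 33.9% of all genes. The median over members of the percentile on array 1 minus the mean of arrays 2 and 3 was 11.7 points for G2/M genes, 8.73 for interferon-stimulated genes, 6.77 for histones and 5.67 for DNA replication genes, and -0.0381 over all genes.

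Some families stood highest on array 3 instead. The highest percentile was on array 3 for 233 of 341 olfactory receptor genes, 42 of 67 keratin-associated protein genes and 35 of 43 collagens, and 33.8% of all genes. The median log2 signal of the olfactory receptor genes was 4.97, 5.23 and 5.53 on arrays 1, 2 and 3, while the standard deviation of signal over all genes was 1.97, 1.87 and 1.82. Array 1 thus had the widest and array 3 the narrowest spread of signal. The part of this spread in the array 1 pattern was not tested. Without array 1 the list medians are those of arrays 2 and 3 alone, 46.0 and 49.4 for G2/M genes and 68.0 and 73.0 for interferon-stimulated genes, higher on array 3 in both.

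**Figure D4:**
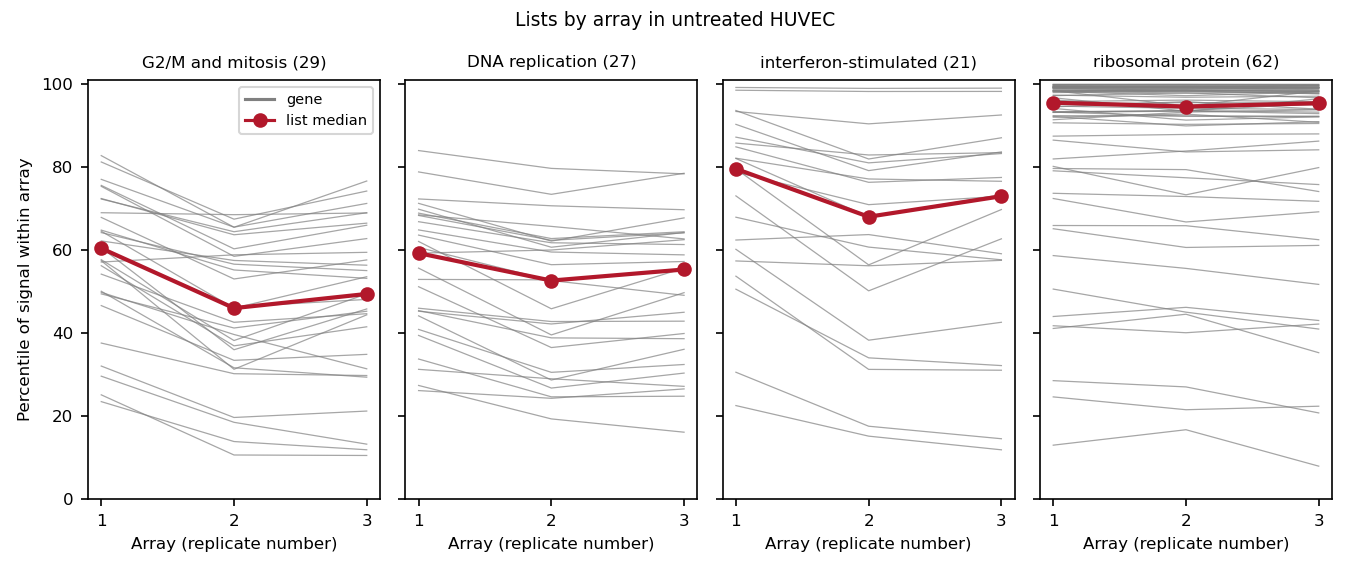
Percentile of each gene (grey lines) and the list median (red) on untreated arrays 1, 2 and 3 for 4 lists. The medians of the G2/M list are 60.4, 46.0 and 49.4 and those of the interferon list 79.6, 68.0 and 73.0. The median of the ribosomal protein list lies between 94.6 and 95.5, in a band where the median gene has a range of only 0.750 points. Of its 62 genes 36 are also highest on array 1.

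Small RNA genes were mostly dim on these arrays, which were labelled from total RNA that included small RNA. Whether a probeset named for a microRNA gene reads the precursor, the primary transcript or the mature form was not tested. Of 173 microRNA genes, 164 had an entry in the RefSeq table of microRNA sequences. The median percentile of the 173 was 14.6 ± 0.290, and 1 of the 173, MIR21, was in the top 10%. It read 10.38, 10.69 and 10.19 on the log2 scale, with percentiles of 92.1, 95.1 and 92.0. MIR326 at 90.04 ± 3.94 and MIR181B1 at 84.95 ± 2.74 followed. MIR31, MIR222 and MIR221, named here after their values were seen, were at 77.9, 73.0 and 65.3. By mean percentile they ranked 6, 7 and 11 of the 173, so they were not the next brightest. MIR126, also named after its value was seen because it is the microRNA best known in endothelium, was at 6.98, while its host gene EGFL7 had percentiles of 79.3, 82.5 and 82.4.

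The mature sequences of these genes are given from RefSeq (GRCh38.p14), 5′ to 3′, with the seed (bases 2 to 8) in capitals. Only miR-221-3p and miR-222-3p, which lie close together on chromosome X, share a seed among those shown.
hsa-miR-21-5p: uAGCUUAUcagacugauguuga
hsa-miR-326: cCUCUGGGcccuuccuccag
hsa-miR-181b-5p: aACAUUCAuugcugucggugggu
hsa-miR-31-5p: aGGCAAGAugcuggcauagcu
hsa-miR-221-3p: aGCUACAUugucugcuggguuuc
hsa-miR-222-3p: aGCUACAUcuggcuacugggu
hsa-miR-126-3p: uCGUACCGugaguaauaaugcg

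Small nucleolar RNAs were spread more widely than microRNA genes. The 112 C/D box RNAs, of a class known for guiding methylation, had a median of 24.9 ± 3.81. The 61 H/ACA box RNAs, of a class known for guiding pseudouridylation, had a median of 43.4 ± 1.62. SNORA71D at 99.2 and SNORA23 at 98.7 were the brightest, followed by SNORD116-15 at 97.6. Members of the same SNORD116 cluster were among the genes that moved most between arrays.

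The base composition of promoters differed between dim genes and the rest, and was nearly level over the upper bands of signal. Of the 18394 genes, 14219 had an entry in the RefSeq promoter table. In the 250 bases before the start the median ratio of observed to expected CpG was 0.292 in the lowest band of 10 percentile points and 0.841 in the highest, and 0.751 over all genes. From the band of 50 to 60 upward it stayed between 0.800 and 0.858. The share of windows with the GC box letters GGGCGG was 25.1% in the lowest and 72.0% in the highest band. TATAAA was found in 20.3% and 6.39% of windows in the same bands, and AGATAA, letters bound by GATA factors, in 15.9% and 3.23%. The lowest share of TATAAA, 4.24%, was in the band from 80 to 90. All 5 motifs searched were 6 letters long and were read on both strands.

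The list of endothelial identity genes differed from the bulk of bright genes in this composition. The list of endothelial transcription factors shared the low share of CCGGAA, but not the low CpG ratio or the high share of CAGGAA. For the 15 of 25 transcription factors with an entry the median CpG ratio was 0.915. CAGGAA was found in 4 of the 15, or 26.7%, and CCGGAA in 1, or 6.67%. For the 32 of 48 with an entry the median CpG ratio was 0.365, with a G+C content of 63.2%, while for genes in the top 10% the CpG ratio was 0.837. CAGGAA was found in 18 of the 32 windows, 56.2%, and in 19.6% of the top 10% and 22.3% of all windows. CCGGAA was found in 2 of the 32, 6.25%, and in 25.6% of the top 10%. The ribosomal protein genes, at a similar rank, had a CpG ratio of 0.940 over 51 windows, with CCGGAA in 24, or 47.1%, and CAGGAA in 14, or 27.5%. Olfactory receptor genes had a CpG ratio of 0.128, a G+C content of 37.2% and CCGGAA in 1 of 275 windows. CDH5 and PECAM1 had no entry and are left out of these counts. The comparison is a count of letters in genes chosen for their function and was given no test.

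**Figure D5:**
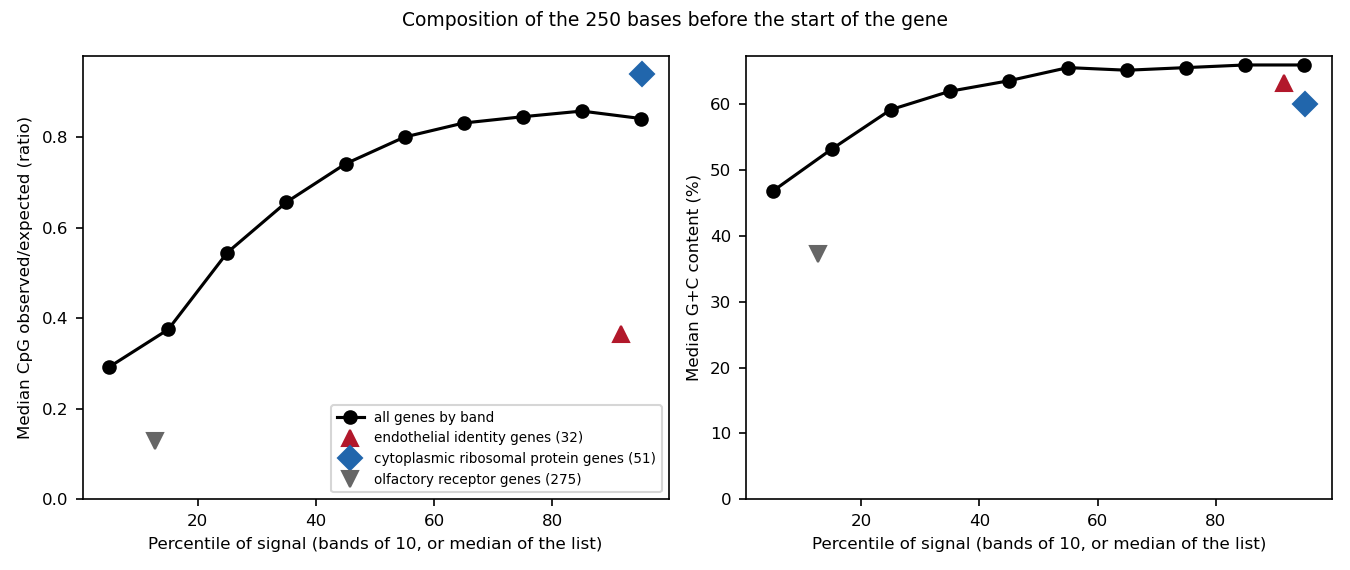
Median ratio of observed to expected CpG (left) and median G+C content in percent (right) of the 250 bases before the gene start, against the percentile of signal in untreated HUVEC, for all genes in bands of 10 (line) and for 3 lists at their median percentile (symbols). The endothelial identity genes (triangle up) lie at a CpG ratio of 0.365 and a median percentile of 91.6, below the line of all genes, and the ribosomal protein genes (diamond) above it at 0.940.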

How the data were processed

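Per the submitters' processing notes, the authors made the values with Affymetrix Expression Console. How it corrected background, how and over which arrays it normalized, and which version ran were not given in the sources used here. Values that the authors deposited look like log2 signals, as no value falls outside the span of such a scale. They carry no detection calls, so nothing says which signals exceed background, and precision is limited by there being 3 arrays.

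The platform annotation gave a single gene symbol for 19460 of 33297 probesets and several symbols for 1754. The other 12083 have no entry and were given no name. Matching by Entrez identifier reached 19429 of the named probesets and changed 0 symbols. Probesets of the Y chromosome and XIST, 24 in all, were left out. A gene was represented by whichever of its probesets had the highest mean over all 15 arrays, leaving 18394 genes, 768 with several probesets. Genes were ranked within each array with average ranks for ties, and the rank was scaled to a percentile from 0 to 100. No contrast was made and no test was run. The percentile code was tested on simulated data. Python 3.11.15, pandas 2.3.3, numpy 2.4.6 and matplotlib 3.10.9 were used.

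The members and lists were chosen with earlier results of these data known. The text names the 20 brightest genes (symbols starting LOC or holding orf, and small RNAs, passed over), up to 8 highest and 5 lowest of each list, 3 highest of each family, members of other lineages in the top 10%, the 12 genes with the widest range, and PECAM1, CDH5, VWF and KDR. Alternatives tried were another probeset per gene, all rows of the table, small RNA genes left out, the 40% dimmest genes left out, quantile normalization and leaving out each array.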

Additional observations from a re-analysis of the deposited data

How the results depend on the processing

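The median of the endothelial identity genes stayed above that of the olfactory receptor genes in 11 of 11 settings. The median of the ribosomal protein genes stayed above that of the endothelial identity genes in 11 of 11 as well. The 11 include the reported setting, and quantile normalization cannot change ranks within an array. This order held on each single array, so leaving out 1 array could not change it either. With the mean of a gene's probesets the endothelial median was 90.4 and the ribosomal 93.7, and with the probeset of the lowest mean they were 90.5 and 92.4, against 91.6 and 95.2 as reported. Ranked among all rows of the table the ribosomal median was 94.1, the olfactory median 22.6, the top 10% 3018 rows and the lowest rho 0.988. With the 40% dimmest genes left out the endothelial median was 85.9, the ribosomal 93.0, the olfactory 9.19 with 7 genes left, the top 10% 1003 genes and the lowest rho 0.977. Fewer or more ranked features move a percentile by construction. Leaving out each array gave a rho of 0.991 to 0.994, an endothelial median of 91.2 to 91.9, a ribosomal median of 95.01 to 95.47, an olfactory median of 11.6 to 13.6 and a top 10% of 1712 to 1756 genes. Quantile normalization over the 3 arrays left ranks as they were, and leaving out small RNA genes or choosing the probeset on the untreated arrays moved the medians and rho by less than the standard deviation between arrays and the number of genes in the top 10% by less than 1.5 times. No paired analysis was possible because no groups were compared and no test was run.

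Of 831 list genes 67 had several probesets, and for 27 of these the probesets lay over 20 percentile points apart, so the place of those genes depends on the probeset. Without detection calls or counts, a low percentile does not separate a transcript that is absent from a poorly responding probe. The cause of the higher cell cycle and interferon lists on array 1 was not tested.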

Other observations

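Growth factor, matrix and innate immune receptors of untreated HUVEC had clear leaders within their families. ITGA5 at a mean percentile of 99.9, ITGAV at 99.5 and ITGA2 at 97.7 led 17 integrin alpha chains, and ITGB1 at 98.6, ITGB3 at 97.1 and ITGB5 at 91.2 led 8 beta chains, so both chains of the fibronectin receptor and of the vitronectin receptor were bright. Among 8 Toll-like receptors TLR4, the lipopolysaccharide receptor, had percentiles of 95.9, 96.3 and 96.3, and TLR3, which senses double-stranded RNA, was next at 71.1 ± 3.67. IL13RA1 at 96.6 and IL4R at 92.1, which pair to bind IL-4 and IL-13, led 42 interleukin receptor genes. FZD6 at 93.8 and FZD4 at 92.5 led 10 Frizzled receptors of Wnt proteins. S1PR1, the main sphingosine-1-phosphate receptor of endothelium, was at 82.1 ± 0.348 and led its family of 4, and SLC2A1 at 88.0 led 14 glucose transporters. NOTCH1 at 87.3 and NOTCH2 at 87.2 stood above NOTCH4, the Notch receptor known for its endothelial expression, at 66.2.

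Immediate early genes, which respond within minutes to serum or handling, had a median percentile of 68.6 ± 0.649 over 22 genes. CCN2 was at 99.9, CCN1 at 97.7 and DUSP1 at 95.9, while FOS was at 40.4 ± 2.48 and EGR3 at 32.9. Of the antigen presentation genes, the peptide-loading factor TAPBP was at 98.3, B2M at 95.3 and TAP1 at 87.7, and the class II genes had a median of 40.6 ± 1.97 over 7 genes, with HLA-DPB1 highest at 73.0 and the class II regulator CIITA at 40.8. Homeobox clusters differed in place, with a median of 52.5 ± 1.41 over 10 HOXB genes, 36.1 ± 3.20 over 9 HOXD genes and 19.1 ± 1.31 over 7 HOXC genes. HOXB2 at 66.7, HOXB4 at 64.7 and HOXD1 at 68.6 were the highest of their clusters.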
